A study of Homo sapiens with 32 samples.

Results

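The intestinal lineage genes described here are 8 named human genes, CDX2, CDX1, HNF4A, GATA6, KRT20, VIL1, CDH17 and LGALS4. They were taken by name, not by a measured value, from the 59084 genes of the RefSeq table of GRCh38.p14 on chromosomes 1 to 22 and X, of which 19156 carried a peak in at least 1 list. The measurement was the number of deposited m6A peaks that overlapped a gene body by 1 base or more. The study profiled N6-methyladenosine (m6A) on RNA that stays bound to chromatin, using an m6A antibody to enrich RNA fragments before sequencing (MeRIP-seq). LOVO and RKO are colorectal cancer lines, and OVCAR8 and SKOV3 are ovarian cancer lines. In each line a control, of genotype WT, was set beside a METTL3 knockdown, and METTL3 is the catalytic subunit of the nuclear m6A methyltransferase. The titles of all knockdown libraries read shMETTL3, those of the ovarian controls read shControl and those of the LOVO and RKO controls read Control. The labels do not state the hairpin sequence, the number of hairpins or clones, or the time after transduction. LOVO and RKO had 1 peak list per group and so no replicate lists, although the titles name 2 MeRIP replicates per group. OVCAR8 and SKOV3 had 2 lists per group, 12 lists in all.

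CDX2 and CDX1 are caudal-type homeodomain transcription factors that set and keep intestinal identity. HNF4A, a nuclear receptor, and GATA6, a zinc finger factor, act with them at enhancers of genes for absorption, adhesion and the brush border. KRT20 (an intermediate filament keratin), VIL1 (villin, which bundles actin in microvilli), CDH17 (liver-intestine cadherin) and LGALS4 (galectin-4, a lectin of the intestinal epithelium) are products of differentiated intestinal cells and are used as markers of colorectal tumours. m6A is deposited in the nucleus on newly made RNA, so a peak requires that the RNA is present, but the number of peaks does not give its level. RNA levels from the input libraries were not analysed here, and in bulk samples fewer cells of a type and less RNA per cell cannot be told apart.

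The lists held between 15484 and 37398 peaks. The caller's background, read from the step of 1 read in the deposited values, was 0.483 times the control value in the list labelled RKO knockdown and between 0.955 and 1.15 times in the other lines. For both lists labelled OVCAR8 knockdown, 95.6% to 96.2% of peaks overlapped a SKOV3 control peak and 69.0% to 69.5% an OVCAR8 control peak. The lists labelled SKOV3 knockdown shared 80.7% to 83.0% with OVCAR8 control and 55.8% to 57.2% with SKOV3 control. In the list labelled RKO knockdown 45.1% of peaks overlapped one of RKO control and 43.0% one of LOVO control, while in LOVO knockdown 73.1% overlapped one of LOVO control. Groups were kept as labelled, and each direction drawn within RKO, OVCAR8 or SKOV3 rests on lists whose peaks do not match the labelled line in this way. The labels do not say whether replicates were separate cultures, and p-values therefore cover the spread between these lists alone, which may be technical.

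The 8 genes carried 57 peaks over the 12 lists, and 46 of these were in the 2 LOVO lists. The LOVO control list held 23 peaks on 7 of the 8 genes and the LOVO knockdown list 23 peaks on 6. RKO control held 6 peaks on 2 genes, and the list labelled RKO knockdown held 1 peak on 1 gene. A single peak was held by each OVCAR8 control list and each SKOV3 knockdown list (1 each), and the OVCAR8 knockdown and SKOV3 control lists held 0. LOVO thus had a peak on nearly every intestinal lineage gene and RKO on CDX2 and GATA6 only. The number of genes with any peak was also lower in the ovarian lists, but it was not higher in LOVO than in RKO. Of 19974 protein-coding genes, 47.1% carried a peak in LOVO control and 44.5% in LOVO knockdown. The share was 48.0% in RKO control, 47.3% in the list labelled RKO knockdown and between 29.0% and 39.3% in the ovarian lists. A peak in a LOVO list with 0 in all 10 other lists was found for 6 of the 8 genes, CDX1, HNF4A, KRT20, VIL1, CDH17 and LGALS4. Among all genes with a peak in LOVO, 8.82% had that pattern.

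**Figure D1:**
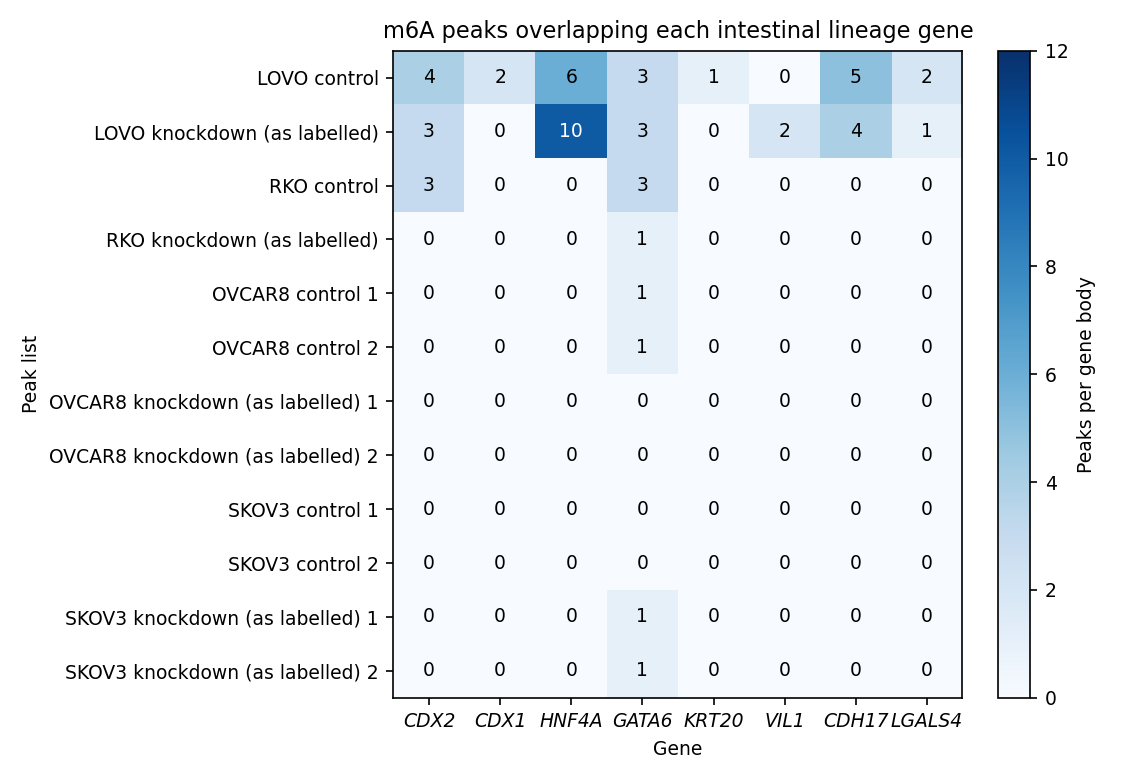
Number of m6A peaks overlapping each of the 8 genes (columns) in each of the 12 lists (rows), with the number written in each cell and a darker colour for more peaks. The 2 LOVO lists hold 46 of the 57 peaks, CDX2 also has 3 in RKO control, and GATA6 is the gene with peaks in the most lists, 8 of 12.

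The peaks of the 8 genes fell at 30 positions after overlapping same-strand peaks of all lists were merged. A peak was found at 12 of these positions in 2 or more lists and at 18 in a single list. Widths ran from 128 to 2173 bases, with a median of 334 bases. For the 5 genes whose strand the promoter table gives (CDX2, HNF4A, GATA6, KRT20 and LGALS4), 43 of 44 peaks lay on the strand of the gene. The exception was on HNF4A. Another annotated gene also covered 5 of the 57 peaks, so those peaks cannot be assigned to 1 gene by position.

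CDX2 (gene ID 1045) lies on the minus strand of chromosome 13, from 27960918 to 27969315 (GRCh38). It carried 4 peaks in LOVO control, 3 in LOVO knockdown, 3 in RKO control, 0 in the list labelled RKO knockdown and 0 in each of the 8 ovarian lists. The gene was marked in both colorectal controls and in neither ovarian line. With 4 peaks over 8398 bases it had the densest marking of the 8 genes in LOVO control, 4.76 peaks per 10 kb, against 0.555 for CDH17 and 1.77 for LGALS4. The peak nearest the start of the gene spanned 27968463 to 27969146 in LOVO control, 169 to 852 bases downstream of the start. It was present at 27968312 to 27969133 in LOVO knockdown and at 27968641 to 27969071 in RKO control. A second shared position lay toward the end of the gene, at 27962211 to 27963188 in LOVO control, with peaks over it in LOVO knockdown and RKO control. Both shared positions ranked high within their own lists by the authors' score. In LOVO control the distal peak had a score of 14.7, higher than 97.2% of the peaks of that list, and the peak near the start had 13.4. In LOVO knockdown the same positions had scores of 15.0 and 11.7, and in RKO control 8.47 and 9.18. Scores were not compared between lists as a change, because no header states how the score was made. The remaining CDX2 positions were smaller. A peak at 27963322 to 27963496 was shared by the LOVO lists, with scores of 5.76 and 9.51. A peak at 27961562 to 27961689 was found in LOVO control alone, with a score of 4.99, and one at 27964926 to 27965157 in RKO control alone, with 6.01.

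The promoter sequence of CDX2 and of 4 other members was in the RefSeq promoter table (GRCh38.p14), which gives 250 bases before and 50 after each start. CDX1, VIL1 and CDH17 had no entry. No peak of any list overlapped these windows. The windows are shown for the genes that contained a match to binding motifs of the lineage factors, which are known to act on each other's promoters. The motifs searched on both strands were TTTATG for caudal-type homeodomain factors, AGATAA for zinc finger factors such as GATA6, CAAAGTCCA for HNF4 and TATAAA, the core promoter box. TTTATG read on the opposite strand shares its last letters with TATAAA. Matches are in capitals, and sequences run 5′ to 3′ along the strand of the gene.
CDX2 promoter, chr13:27969266-27969565, minus strand: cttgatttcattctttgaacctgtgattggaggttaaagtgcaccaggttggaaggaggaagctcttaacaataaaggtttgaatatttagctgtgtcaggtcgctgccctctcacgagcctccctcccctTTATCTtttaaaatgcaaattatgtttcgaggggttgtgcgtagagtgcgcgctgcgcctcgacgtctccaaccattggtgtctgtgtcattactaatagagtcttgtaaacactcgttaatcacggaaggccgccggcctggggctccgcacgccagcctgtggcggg
HNF4A promoter at the first start, chr20:44355449-44355748, plus strand: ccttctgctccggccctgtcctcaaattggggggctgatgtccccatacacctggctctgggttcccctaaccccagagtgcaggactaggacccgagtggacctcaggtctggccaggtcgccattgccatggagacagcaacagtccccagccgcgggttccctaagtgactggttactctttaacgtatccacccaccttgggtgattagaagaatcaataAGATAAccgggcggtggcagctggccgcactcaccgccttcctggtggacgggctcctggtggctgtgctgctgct
KRT20 promoter, chr17:40885193-40885492, minus strand: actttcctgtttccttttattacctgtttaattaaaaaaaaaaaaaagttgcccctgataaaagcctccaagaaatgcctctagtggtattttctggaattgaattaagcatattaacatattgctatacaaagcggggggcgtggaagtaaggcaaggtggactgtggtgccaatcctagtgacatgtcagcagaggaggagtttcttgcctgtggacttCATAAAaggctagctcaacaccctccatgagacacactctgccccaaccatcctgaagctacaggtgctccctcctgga
The CDX2 window held AGATAA on the opposite strand, and the HNF4A window at the first start held AGATAA on its own strand. The KRT20 window held TTTATG on the opposite strand. The window at the second HNF4A start and those of GATA6 and LGALS4 held none of these motifs. Other spellings of sites for the same factors were not searched, so these windows may hold such sites. Of 34961 promoter windows in the table, 10.6% held TTTATG, 10.3% AGATAA, 11.5% TATAAA and 0.386% CAAAGTCCA. A match describes the letters of the window only.

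CDX1 (gene ID 1044; chromosome 5, 150166778 to 150184558), the second caudal-type factor, carried 2 peaks in LOVO control and 0 in all 11 other lists. Both lay toward the high-coordinate end of the gene, at 150183367 to 150183528 with a score of 6.18 and at 150184014 to 150184397 with a score of 7.08. No peak of another list overlapped either. CDX1 and CDX2 therefore differed in where they were marked, since RKO control had 3 peaks on CDX2 and 0 on CDX1.

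HNF4A (gene ID 3172) lies on the plus strand of chromosome 20, from 44355699 to 44434596, and is transcribed from alternative promoters. It had 6 peaks in LOVO control, 10 in LOVO knockdown and 0 in each of the 10 other lists, the most of the 8 genes in either LOVO list. Peaks occurred at 9 positions, of which 4 were found in both LOVO lists. The shared positions included the 3′ part of the gene, where LOVO control had a peak at 44429485 to 44431032 with a score of 6.98 and one at 44431199 to 44431981 with 8.52. LOVO knockdown had peaks there at 44429487 to 44430825 with a score of 5.46 and at 44431017 to 44432193 with 6.37. A peak at 44360161 to 44360572, which HNF4A-AS1 also covers, was in LOVO control alone, with a score of 7.93. LOVO knockdown alone had peaks at 44385027 to 44385176 and 44387761 to 44387917, both also within HNF4A-AS1, and an opposite-strand peak at 44430090 to 44430485, with scores of 6.27, 3.72 and 3.47. The higher number in the knockdown list depended on how weak and split peaks were counted. Around the second start, at 44401239, 3 peaks of that list (44399943 to 44400425, 44400591 to 44400761 and 44401349 to 44401575) carried the same name and the same score of 4.21, and the third began 110 bases after that start. LOVO control had 1 peak there, at 44399951 to 44400761. With peaks of 1 name counted once HNF4A had 6 peaks in control and 8 in knockdown, and with scores of 5 or more 5 and 3.

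**Figure D2:**
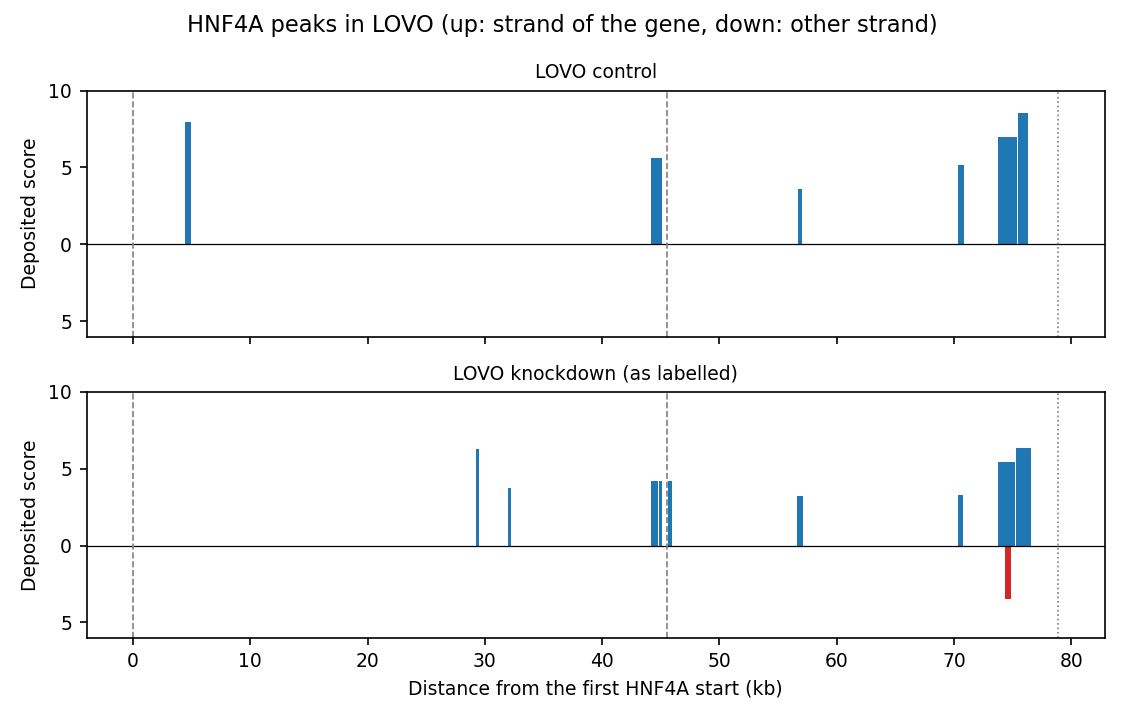
Peaks on HNF4A in LOVO control and LOVO knockdown by distance in kb from the first start of the gene (x axis), with the deposited score as height (y axis), upward on the strand of the gene and downward on the other strand; dashed lines mark the 2 starts, the dotted line marks the end of the gene, and narrow peaks are widened slightly to be visible. Both lists have peaks before the second start and near the end of the gene, and 6 peaks in control stand beside 10 in knockdown.

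GATA6 (gene ID 2627; plus strand of chromosome 18, 22169589 to 22202528) had the widest distribution. It carried 3 peaks in LOVO control, 3 in LOVO knockdown, 3 in RKO control and 1 in the list labelled RKO knockdown. It had 1 peak in each OVCAR8 control list, 0 in each list labelled OVCAR8 knockdown, 0 in each SKOV3 control list and 1 in each list labelled SKOV3 knockdown. GATA6 was thus the only member with a peak in any ovarian list. The peaks fell mainly at a position near the start and at another near the end of the gene. Peaks within 22170900 to 22172134 were found in 7 lists, LOVO control, LOVO knockdown, RKO control, both OVCAR8 controls and both lists labelled SKOV3 knockdown. Peaks within 22200817 to 22201282 were found in the 4 colorectal lists and in no ovarian list. The ovarian peak was nearly identical in its 4 lists, 154 or 155 bases wide, and lay at 22171980 to 22172134 in OVCAR8 control 1. Its deposited fold enrichment was 4.91 and 5.19 in the OVCAR8 controls and 4.87 and 4.62 in the lists labelled SKOV3 knockdown, and the deposited −log10 q was between 22.2 and 26.1. The peak near the end of the gene had a score of 11.3 in LOVO control, 4.90 in LOVO knockdown, 5.59 in RKO control and 4.8 in the list labelled RKO knockdown. The last of these, at 22200970 to 22201119, was the only member peak of its list and scored higher than 12.2% of the peaks of that list.

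**Figure D3:**
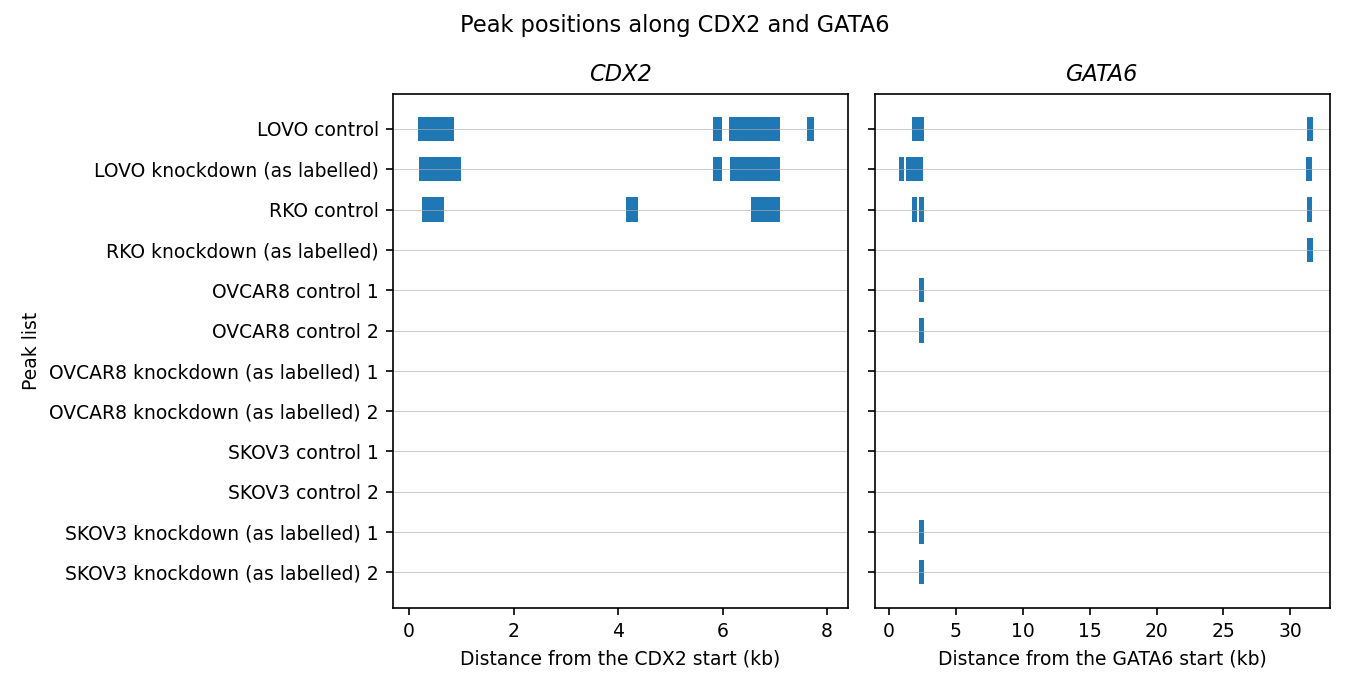
Peaks on CDX2 and GATA6 by list (rows) and distance in kb from the start of the gene (x axis); each bar is a peak, and narrow peaks are widened to be visible, so that neighbouring GATA6 peaks in LOVO control touch. CDX2 has peaks in LOVO control, LOVO knockdown and RKO control, and the GATA6 peak near the end of the gene is found in the 4 colorectal lists.

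Of the structural and adhesion genes, CDH17 (gene ID 1015; chromosome 8, 94127162 to 94217278) was the most marked. It carried 5 peaks in LOVO control, 4 in LOVO knockdown and 0 in each of the 10 other lists. Its strongest peak in LOVO control, at 94134473 to 94136645, was the widest of the 57, 2173 bases, and had a score of 14.8, higher than 97.3% of that list. In LOVO knockdown 2 narrower peaks, at 94134550 to 94134883 and 94135229 to 94135894, with scores of 6.70 and 4.19, lay within that interval. The positions at 94131808 to 94133440 and 94187575 to 94187929 were also shared, with control scores of 8.35 and 8.66 and knockdown scores of 6.78 and 6.12. A control peak at 94202067 to 94202323, which the pseudogene RPL6P23 also covers, had no counterpart.

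LGALS4 (gene ID 3960; minus strand of chromosome 19, 38801674 to 38812945) carried 2 peaks in LOVO control, 1 in LOVO knockdown and 0 elsewhere. The control peaks, at 38805330 to 38805562 and 38812294 to 38812446, had scores of 6.19 and 4.90, and the knockdown peak, at 38809841 to 38810037, had 5.28. None of the 3 positions was shared. KRT20 (gene ID 54474; minus strand of chromosome 17, 40875889 to 40885242) carried 1 peak in LOVO control, at 40884821 to 40885042 with a score of 8.68, and 0 in the other 11 lists. That peak lay 200 to 421 bases downstream of the start, and LOC105371777 covers it too. VIL1 (gene ID 7429; chromosome 2, 218419123 to 218453295) was the only member with no peak in LOVO control. It carried 2 peaks in LOVO knockdown, at 218429178 to 218429329 and 218429744 to 218429907, with scores of 4.41 and 3.49, and 0 elsewhere.

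The first comparison set METTL3 knockdown against control in LOVO, with 1 list per group and therefore no test. A gene counted as lower or higher when log2 of its peaks plus 1 differed by 1 or more. CDX1 (2 to 0 peaks) and KRT20 (1 to 0) were lower, 2 of the 8 genes, where 20.4% of all 13147 genes with a peak in LOVO were lower. VIL1 (0 to 2) was higher, 1 of 8, where 10.4% of all genes were higher. These shares are close to those of all genes, and the KRT20 count rests on a peak shared with another gene. The log2 differences of the other genes were −0.32 for CDX2, 0.65 for HNF4A, 0.00 for GATA6, −0.26 for CDH17 and −0.58 for LGALS4. The median over the 8 genes was −0.29, beside 0.00 over all genes. None of the 4 members with 3 or more control peaks had 0 in LOVO knockdown, beside 2.42% of all such genes. By position, 14 of the 23 control peaks (60.9%) were overlapped by a knockdown peak, beside 62.2% of all control peaks. Strong positions on CDX2, CDH17 and GATA6 were among those found in both lists.

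In RKO, CDX2 went from 3 peaks in control to 0 in the list labelled knockdown and GATA6 from 3 to 1, log2 differences of −2.0 and −1.0. Both members with a peak in RKO were therefore lower, where 30.5% of the 15702 genes measured were lower and 25.9% higher. Of all genes with 3 or more peaks in RKO control, 14.9% had 0 in the list labelled knockdown, as CDX2 did and GATA6 did not. By position, 1 of the 6 control peaks (16.7%) was found in the list labelled knockdown, beside 39.9% of all RKO control peaks. LOVO control had a peak over 5 of these 6 peaks, beside 59.7% of all RKO control peaks. Among all RKO control peaks of similar score rank, 39.0% were not found at the rank of the 2 stronger CDX2 peaks and 57.9% at that of the weaker one. At the ranks of the 2 GATA6 peaks that were not found, 73.0% and 70.0% of all peaks were not found either. A set of 950 genes shared the CDX2 pattern of a peak in LOVO control, LOVO knockdown and RKO control and 0 in all ovarian lists, and 41.6% of them had 0 in the list labelled RKO knockdown. Of the 100 such genes with 3 or more peaks in each of those lists, 35.0% had 0 there. A drop to 0 like that of CDX2 was therefore common among genes of its pattern. With 1 list per group there is no test, and the lower estimated background of that list (0.483 times control) moved with this difference. Its part in the result was not tested.

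In the ovarian lines only GATA6 could be compared. In OVCAR8 each control list held 1 GATA6 peak and each list labelled knockdown 0, a log2 difference of −1.0. In SKOV3 each control list held 0 and each list labelled knockdown 1, a difference of 1.0. The groups did not overlap in either line. Of all genes, 46.3% had every OVCAR8 knockdown list below control and 15.3% above it, and in SKOV3 31.6% were below and 26.3% above. The two-sided exact permutation p was 0.333 in each line, the smallest that 2 lists against 2 allow, with Benjamini-Hochberg adjusted values of 0.908 in OVCAR8 and 0.863 in SKOV3. GATA6 had a peak in the lists that resembled OVCAR8 control and none in those that resembled SKOV3 control. Of 13348 genes with a peak in an ovarian list, 20.3% had the OVCAR8 control and SKOV3-labelled knockdown lists all above the others. The METTL3 label and the line cannot be told apart for this gene.

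Over all 4 lines, an exact permutation test with labels exchanged within each line (144 arrangements, smallest p 0.0139, two-sided) called 0 of 19156 genes after Benjamini-Hochberg adjustment, 0% of genes, and 318 at an unadjusted p under 0.05, 1.66%. Even with every called gene at the smallest p, an adjusted call would have needed at least 5322 genes. The count of 0 was therefore nearly fixed by the number of lists. The members' own counts also set how low p could go, to no less than 1 for the 6 genes with peaks in LOVO alone, 0.5 for CDX2 and 0.0278 for GATA6. The test can therefore say nothing about 7 of the 8 genes. The mean log2 difference, knockdown minus control, was −0.58 for CDX2 (exact p = 0.5, adjusted p = 1) and −0.25 for GATA6 (exact p = 0.778, adjusted p = 1). It was −0.40 for CDX1, 0.16 for HNF4A, −0.25 for KRT20, 0.40 for VIL1, −0.07 for CDH17 and −0.15 for LGALS4, each from LOVO alone and each with an exact p of 1. The median over the 8 genes was −0.20, beside −0.12 over all genes. Without the RKO lists the CDX2 difference was −0.11 and that of GATA6 0.00, and the exact p was 1 for each of the 8 genes.

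The next comparison set the controls of the colorectal lines against those of the ovarian lines. CDX2 and GATA6 had more peaks in both colorectal controls than in all 4 ovarian control lists, 2 of the 7 members with a control peak, where 19.6% of all genes did so and 3.90% had fewer in both. The mean log2 difference was 2.16 for CDX2 and 1.5 for GATA6. The exact permutation p over the 4 lines was 0.333 for both, the smallest possible, with an adjusted p of 1. HNF4A (1.40), CDH17 (1.29), CDX1 (0.79), LGALS4 (0.79) and KRT20 (0.50) differed through LOVO alone, since RKO control had 0 peaks on each. Between the colorectal controls, 5 of 7 members were higher in LOVO by 1 or more on log2 of peaks plus 1, HNF4A by 2.81 and CDH17 by 2.58. Of all genes, 18.4% were higher in LOVO and 21.4% higher in RKO, and no member was higher in RKO. These are 1 list each, so the difference between LOVO and RKO has no replicate check.

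A list of 76 other intestinal genes (transcription factors, stem cell, secretory and absorptive genes, brush border and epithelial adhesion genes) was counted in the same way. In LOVO control 44 of the 76 carried a peak and in LOVO knockdown 45. RKO control had 14, the list labelled RKO knockdown 10 and the ovarian lists between 11 and 21. The wider list therefore followed the 8 genes in being marked most in LOVO. Of the 46 measured in the colorectal controls, 34 were higher in LOVO and 2 in RKO, beside the shares of all genes given above. After knockdown in LOVO, 7 of 48 were lower and 5 higher, with a median log2 difference of 0.00. Of all genes with a peak in LOVO, 20.4% were lower and 10.4% higher. In RKO 10 of 18 were lower and 4 higher, beside 30.5% and 25.9% of all genes. No gene of the list passed the test over lines.

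Genes of that list with many peaks in LOVO control included GRHL2, EPHB2 and USH1C. GRHL2, an epithelial transcription factor, had 12 peaks in LOVO control, 8 in LOVO knockdown and 0 in the other 10 lists. EPHB2, a receptor of crypt cells, had 11 and 14 in LOVO, 11 in RKO control and 4 in the list labelled RKO knockdown. USH1C, which encodes harmonin of the brush border, had 9 in each LOVO list and 0 in both RKO lists, but 13 and 16 in OVCAR8 control and 11 and 12 in the lists labelled SKOV3 knockdown. The RKO-labelled knockdown list had peaks on CDHR2, EPHB2, SOX9 and AXIN2, among others. CDHR2, a protocadherin of microvilli, had 6 there and 0 in RKO control, and SOX9, a progenitor transcription factor, had 4 there and 0 in RKO control. Of the 18 genes of the list measured in RKO, 8 with a peak in RKO control had 0 there. Another 4, CDHR2 and SOX9 among them, had peaks there with 0 in RKO control. The shares of all genes with these changes were not counted.

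Markers of other cell types moved with the RKO difference. Of 20 neural genes, 11 carried a peak in the list labelled RKO knockdown, 2 in RKO control and between 1 and 4 in the other 10 lists. Among all protein-coding genes, 48.0% carried a peak in RKO control and 47.3% in the list labelled RKO knockdown. NCAM1 had 9 peaks in that list, TUBB3 6 and SOX2 3, beside 0, 2 and 0 in RKO control. Of 20 mesenchymal genes, 11 carried a peak in that list and 4 in RKO control, with summed numbers of 68 and 25 peaks. The ovarian lists had 5 to 10 of these genes and 16 to 79 peaks, so the summed number in the RKO-labelled knockdown list lay within their range, and the LOVO lists had 1 and 0 genes. CDH2 had 10 peaks and SPARC 8 there and 0 in RKO control, while ZEB1 had 21 in each. Of 20 ovarian and Muellerian genes, 6 carried a peak in that list, 7 in RKO control and between 3 and 9 in the ovarian lists. The part of these marker differences in the lower CDX2 and GATA6 counts was not tested.

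**Figure D4:**
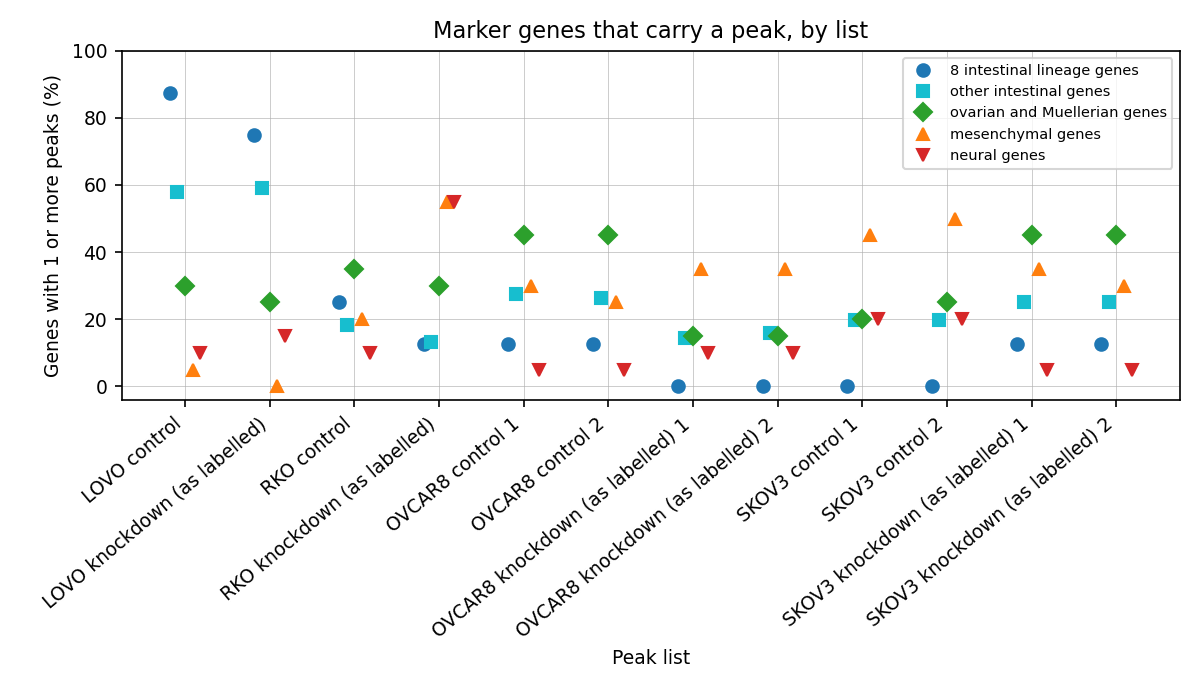
Share of the genes of each marker list that carried 1 or more peaks (y axis, percent) in each of the 12 lists (x axis), with 1 symbol per marker list, set slightly apart sideways. The 8 intestinal lineage genes and the 76 other intestinal genes are highest in LOVO, and the neural and mesenchymal lists each have 11 of 20 genes with a peak in the list labelled RKO knockdown.

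The genes with the pattern over the 12 lists most like that of each member with 3 or more peaks were found by Pearson r on log2 of peaks plus 1, as a description. For CDX2 these were DOCK6, with the same number in all 12 lists, SRP14-DT and CABP1-DT (r = 0.999 for both). HNF4A was matched by VIPR1, PLG and REG4, all with peaks in the LOVO lists alone. CDH17 had the same numbers as CYP2S1, HSD17B2 and LOC105374264. For GATA6 the nearest were PRR14 (r = 0.990), MRPS17 (r = 0.984) and VPS26B (r = 0.976). The 12 lists share lines and differ in their total number of peaks. Most are at 0 for CDX2, HNF4A and CDH17, so few distinct values enter each r.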

How the data were processed

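Peak lists of chromatin-associated RNA were used as deposited. The authors deposited, for OVCAR8 and SKOV3, 1 list per MeRIP library with a fold (a linear ratio) and −log10 p and q values per peak, and a single list with an unexplained score for each group of LOVO and RKO. MACS2 2.2.7.1, HISAT2 2.1.0, Bowtie2 2.4.2 and Trim Galore 0.6.6 are named, on build hg38, per the submitters' processing notes, with no role given. The sources used here do not say how replicate 2 entered the LOVO and RKO lists. Read totals were not analysed.

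Peaks were counted per gene body (chromosomes 1 to 22 and X), with 1 added before log2. The exact permutation test over lines was run on all 19156 genes with a peak. For RKO and LOVO the background assumes that the score is a fold with 1 added to reads and background. It is the smallest background for which the 40 commonest values of a strand give whole reads within 10% of a read.

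The members, gene lists and tests were chosen with earlier results of these data known. All 8 members were named. Of the 76 other genes the 5 with most peaks in LOVO control and in the list labelled RKO knockdown were named, except some that are not reported here, and for each member with 3 or more peaks the 3 genes of most similar pattern. Single peaks were named where they were the strongest of a list, near a start or found in 1 line. Neural and mesenchymal genes given as examples, and some further peaks, were chosen after their values were seen. Python 3.11.15, pandas 2.3.3, numpy 2.4.6 and scipy 1.17.1 were used.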

Additional observations from a re-analysis of the deposited data

Results flagged for a closer look

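GATA6 moved in opposite directions in lines under the same contrast. Its log2 difference, knockdown minus control, was −1.0 in both RKO and OVCAR8 and 1.0 in SKOV3, so that every list labelled knockdown lay below control in the former lines and above it in the latter. The difference between lines was not tested. It rests on 1 peak per list in the ovarian lines, and the lists labelled SKOV3 knockdown shared 80.7% to 83.0% of their peaks with OVCAR8 control. Those labelled OVCAR8 knockdown shared 95.6% to 96.2% with SKOV3 control. Of 13348 genes with a peak in an ovarian list, 20.3% had the same pattern over the ovarian lists. The METTL3 label and the line cannot be told apart for GATA6 there.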

How the results depend on the processing

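Of 20 alternatives, each result was recomputed under those that apply to it. This gave 401 values for 37 results, of which 374 were counted as the same. For a count this meant staying near the reported value. For a log2 difference it meant only that the sign did not reverse, so a shrinking difference counted as the same. Without the RKO lists, CDX2 went from −0.58 to −0.11 and GATA6 from −0.25 to 0.00. Leaving out an ovarian list could not change genes with peaks in LOVO alone. Where the strongest peaks were taken, strength was the score in LOVO and RKO but the deposited −log10 p in the ovarian lists. With the same number of strongest peaks in every list (15484), the 8 genes had 12 peaks in LOVO control, 9 in LOVO knockdown, 3 in RKO control (on 1 gene), 0 in the list labelled RKO knockdown (on 0 genes) and a mean of 0.5 in OVCAR8 control; 0 members were then higher in LOVO, 1 was lower in RKO, 0 were below control in OVCAR8 and 1 was above in the colorectal controls, and the HNF4A difference over lines reversed to −0.10. With a fold or score of 5 or more there were 11 peaks in LOVO knockdown, 0 in the list labelled RKO knockdown (on 0 genes), 0.5 in OVCAR8 control and 0 in the lists labelled SKOV3 knockdown (on 0 genes); 0 members were higher in LOVO, 0 below in OVCAR8, 0 above in SKOV3 and 1 above in the colorectal controls, and HNF4A reversed to −0.15. In that setting 9 of 17 LOVO control peaks were found in LOVO knockdown, 0 of 4 RKO control peaks in the list labelled RKO knockdown and 3 of 4 in LOVO control. With peaks that overlap no other gene, 1 member was lower in LOVO. The test over lines called 0 genes under all alternatives, which the number of lists nearly fixes and which shows no stability; leaving out 1 ovarian list gave 298 to 343 genes at an unadjusted p under 0.05. With the replicate block (64 arrangements, smallest p 0.0312) 105 genes passed unadjusted and 0 adjusted. Same-numbered lists of a labelled line did not deviate together over genes (correlation 0.01 in OVCAR8 and −0.01 in SKOV3). The ovarian lists labelled knockdown shared more peaks with the control of the other line. The correlation therefore cannot decide whether the numbers pair the lists. Without the RKO lists 146 genes passed unadjusted. Small counts of peaks per gene, 1 list per group in LOVO and RKO, and RNA levels not analysed here limit all values.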
